A study of Mus musculus with 7 samples.

Results

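The genes described are 10 that serve antigen presentation by class I molecules of the major histocompatibility complex. They are H2-K1, H2-D1 and B2m for the presented molecule, Tap1, Tap2 and Tapbp for peptide transport and loading, Psmb8, Psmb9 and Psmb10 for the immunoproteasome, and Nlrc5 for transcriptional control. They were taken by symbol from a deposited table of 50435 gene rows. All 10 were present, and all 10 passed the filter of a mean of 1 RPM (reads scaled to a common library total), which left 14100 genes for testing. RNA came from mouse marrow cells gated as CD31+ Sca1- and negative for CD45, Ter119, Gr1 and CD11b, a gate meant for the endothelium of the marrow sinusoids. Both groups were wild-type mice that had been irradiated and given Zbtb46dtr marrow. This allele puts the receptor for diphtheria toxin under the control of Zbtb46, which marks classical dendritic cells, so only cells of donor origin carry it, and other donor cells that use Zbtb46 would carry it too. At 8 weeks after transplantation the 3 DT samples came from mice given 200 ng of diphtheria toxin in 100 µl of PBS into the peritoneum, and the 4 PBS samples from mice given 100 µl of PBS alone. Marrow was taken 1 day later. The labels call the samples biological replicates and state neither age nor strain background.

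H2-D1 was higher in DT, 1.40-fold by group means, and B2m was lower, at 0.693 of its PBS mean. The other 8 genes did not pass the test. In the same test 32.0% of all tested genes passed, 13.4% higher and 18.6% lower in DT, so 2 called genes of 10 are no more than the table as a whole shows. The groups did not overlap for 3 of the 10 (H2-D1 and Tapbp higher, B2m lower), against 40.9% of all tested genes, 16.1% with DT higher and 24.7% with DT lower. The log2 changes of the 10 genes lay between -0.52 and 0.50, and 50.4% of all tested genes changed by no more than the largest of these in size. Their median log2 change was 0.10, where all tested genes had a median of -0.23. That difference was not tested.

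Class I molecules display peptides from proteins made inside the cell to CD8 T cells. A heavy chain pairs with beta-2 microglobulin in the endoplasmic reticulum, the peptide is cut by the proteasome, carried in by a transporter of 2 chains and loaded with the help of tapasin. In cells exposed to interferon gamma, and constitutively in many blood cells, 3 catalytic subunits of the proteasome are replaced by immunoproteasome subunits. Nlrc5 drives transcription of many of these genes together with factors that bind their promoters.

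The promoters show what the genes of the presented molecule share before any level is compared. RefSeq entries on GRCm38 were found for 8 of the 10 genes, and Tap2 and Nlrc5 were not searched. The 250 bases before each RefSeq start were searched on both strands for AANNGAAA, the core bound by interferon regulatory factors, an NF-kB site written as GGGA and CC with any 4 bases between them, TGACG, a half-site of CREB-type factors, and CCAAT, the box bound by NF-Y. The first pair and the last pair stand for the interferon and NF-kB region and for the part of the promoter bound by the Nlrc5 complex. Both NF-kB matches of each gene below are 1 palindrome-like site read on both strands, shifted by a single base. The promoters of H2-K1 and B2m are printed in full, with the matches in capitals, because they hold all 4 motifs while H2-K1 did not pass the test and B2m was lower. The H2-K1 sequence is chr17:34000348-34000597, minus strand, and the B2m sequence is chr2:122147437-122147685, plus strand. The H2-K1 sequence ends just before the start, and the B2m sequence is printed as 249 bases, without the last base of the window, which GENCODE counts as the first of the gene.
H2-K1: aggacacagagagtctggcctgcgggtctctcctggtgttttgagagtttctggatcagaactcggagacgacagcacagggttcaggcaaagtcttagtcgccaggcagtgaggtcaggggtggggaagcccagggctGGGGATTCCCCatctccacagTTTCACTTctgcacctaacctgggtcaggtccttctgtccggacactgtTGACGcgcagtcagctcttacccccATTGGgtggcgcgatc
B2m: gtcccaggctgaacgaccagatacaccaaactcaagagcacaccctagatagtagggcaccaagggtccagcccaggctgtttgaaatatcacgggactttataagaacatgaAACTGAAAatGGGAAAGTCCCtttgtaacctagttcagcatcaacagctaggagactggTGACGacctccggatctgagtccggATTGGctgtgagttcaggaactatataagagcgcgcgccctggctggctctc

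H2-D1, the gene that was higher in DT, carries the same modules. Its NF-kB and interferon stretch lies at chr17:35262923-35262951 and the CREB to CCAAT stretch at chr17:35262993-35263022, both on the plus strand. They lie before the RefSeq start at 35263094, which is 364 bases inside the longer gene span that GENCODE gives. The lines below set them beside those of H2-K1 and B2m.
H2-D1, NF-kB and interferon: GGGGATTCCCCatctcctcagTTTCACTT
H2-K1, NF-kB and interferon: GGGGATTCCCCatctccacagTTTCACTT
B2m, interferon and NF-kB: AACTGAAAatGGGAAAGTCCC
H2-D1, CREB to CCAAT: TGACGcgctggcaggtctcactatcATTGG
H2-K1, CREB to CCAAT: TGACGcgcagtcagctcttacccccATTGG
B2m, CREB to CCAAT: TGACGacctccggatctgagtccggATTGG

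In the first stretch H2-K1 and H2-D1 had the same letter at 28 of 29 positions, and in the second at 23 of 30. In an alignment of the 2 windows with 120 gap positions they were identical in 174 of 190 aligned positions (91.6%). The CREB half-site and the CCAAT box spanned 30 bases in all 3 genes, with B2m in the reverse order of its first 2 motifs. All 4 motifs were found in 3 of the 8 promoters searched (H2-K1, H2-D1 and B2m), and in 0.198% of 32851 promoters of the same length. The motifs stand for known parts of class I promoters, so these shares are a description and no test of enrichment. H2-K1 and H2-D1 are alike in sequence, so they are not 2 separate cases. Singly, AANNGAAA was found in 3 of 8 (21.3% of all promoters), the NF-kB site in 3 of 8 (17.6%), TGACG in 5 of 8 (17.8%) and CCAAT in 6 of 8 (33.8%). The RefSeq starts of Psmb9 and Tap1 lie back to back on chromosome 17 with 225 bases between them, so they share 1 TGACG and 1 CCAAT match, while the longer GENCODE spans of these genes overlap by 212 bases. A match is a description of letters and not a measured site. The RefSeq start used lies inside the GENCODE span by 3579 bases for Tapbp, 474 for Psmb8 and 434 for Psmb9. The bases before the GENCODE starts of these genes were not searched as windows of their own, so few or no matches there describe the RefSeq window only.

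**Figure D1:**
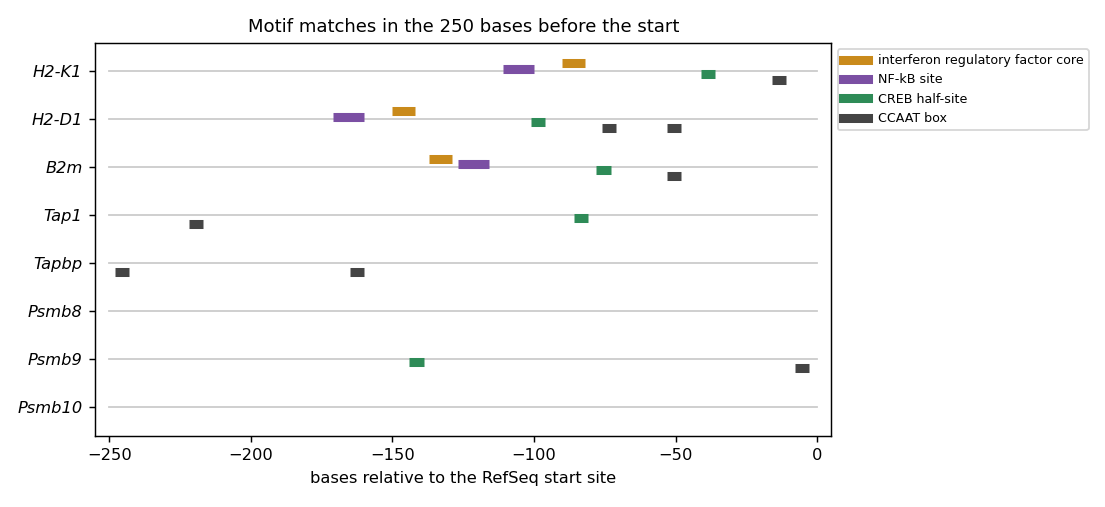
Positions of 4 motifs in the 250 bases before the RefSeq start of 8 genes, in bases relative to the start (0 at the start), 1 row per gene and 1 colour per motif, both strands together. H2-K1, H2-D1 and B2m hold all 4 motifs, while Psmb8 and Psmb10 hold none of these letters in the window. The RefSeq start of Psmb8 lies 474 bases inside its GENCODE span.

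Depth and cell content bear on every level given here. The libraries hold an estimated 33200000 to 51200000 reads, so a signal of 3 reads equals 0.0585 to 0.0904 RPM, far below the 10 genes. Of 14 endothelial markers, 9 averaged under 1 RPM over the 7 libraries, among them Kdr, Tek, Tie1 and Emcn, and the list summed to 82.6 to 106 RPM in DT and 72.3 to 111 RPM in PBS, most of it Pecam1, which encodes the sorted CD31 and which leukocytes express too. Of the 5 that were tested, 1 was higher. For this and the marker counts below, 13.4% of all tested genes were higher and 18.6% lower. Summed neutrophil markers, led by Ngp and S100a8, lay between 60500 and 65000 RPM in DT and between 2040 and 4520 RPM in PBS, and all 14 were higher in DT, although the gate excludes Gr1+ and CD11b+ cells. All 12 monocyte and macrophage markers, led by Lyz2 and Ly6c2, were higher as well, with sums of 7200 to 9080 RPM in DT and 427 to 914 RPM in PBS. T and natural killer cell markers, led by Nkg7 and Lck, summed to 364 to 370 RPM in DT and 29.4 to 73.9 RPM in PBS (10 of 12 higher). B-lineage markers, led by Ighm and Igkc, summed to 7480 to 8560 RPM in DT and 7870 to 13000 RPM in PBS (8 of 12 lower). Erythroid markers, led by Car2 and Car1, summed to 1560 to 2080 RPM in DT and 1020 to 11200 RPM in PBS (9 of 12 lower, 3 higher), and PBS replicate 1 held the lowest sum. Classical dendritic cell markers, led by Wdfy4 and Naaa, summed to 149 to 186 RPM in DT and 170 to 231 RPM in PBS. Of 7 tested, 4 were higher (Flt3, Naaa, Cd209a and Itgax) and 1 lower (Wdfy4, 93.9 ± 9.93 RPM in DT and 170 ± 35.3 RPM in PBS). Zbtb46 was at 1.57 ± 1.55 RPM in DT and 9.21 ± 6.62 RPM in PBS. Its groups overlapped and it did not pass (limma, adjusted p = 0.0556). Xcr1, Clec9a and Batf3 averaged under 1 RPM. Plasmacytoid dendritic cell markers, led by Ly6d and Tcf4, summed to 390 to 491 RPM in DT and 391 to 704 RPM in PBS. Of the 6, 2 were higher and 1 lower. Siglech was 11.1-fold higher in DT by group means (limma, adjusted p = 0.00169) and Ccr9 8.74-fold higher (limma, adjusted p = 0.00779). Tcf4 was lower, at 0.583 of its PBS mean (limma, adjusted p = 0.00279), and Ly6d did not pass. The sum, led by Ly6d and Tcf4, does not show the higher levels of Siglech and Ccr9. These shifts move with the treatment, and their part in the results on class I genes was not tested. In bulk RNA, fewer cells of a type and less RNA per cell cannot be told apart.

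H2-K1 and H2-D1 encode the classical heavy chains and lie on chromosome 17 at 33996017 to 34000347 (minus strand) and 35262730 to 35267499 (plus strand) in mm10. H2-D1 was at 2384, 2309.9 and 2582 RPM in DT replicates 1 to 3, against 1985, 1424, 1607 and 1932 RPM in PBS replicates 1 to 4. Every DT library was above every PBS library. The log2 change was 0.49 ± 0.17 (SE; 95% interval 0.11 to 0.87; limma, adjusted p = 0.0497), which is 0.72 above the median of all genes. The call stands at the threshold. It was lost without PBS replicate 2 (adjusted p = 0.0566), PBS replicate 3 (0.105), PBS replicate 4 (0.0748), DT replicate 1 (0.121), DT replicate 2 (0.116) or DT replicate 3 (0.179), and was 0.0162 without PBS replicate 1.

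H2-K1 stood at 652, 709.6 and 776 RPM in DT, against 902, 726, 898 and 857 RPM in PBS. DT replicate 3 lay above PBS replicate 2, so the groups overlapped. The log2 change of -0.24 ± 0.14 (SE; 95% interval -0.56 to 0.07) did not pass (limma, adjusted p = 0.21) and was 0.02 below the median of all genes. The ratio of H2-D1 to H2-K1 within a library was 3.41 ± 0.213 in DT (SD, n = 3) and 2.05 ± 0.216 in PBS (SD, n = 4). This ratio of RPM is not corrected for the longer H2-D1 transcript, so it compares groups and not the 2 genes. It was 3.66, 3.26 and 3.33 in DT and 2.20, 1.96, 1.79 and 2.25 in PBS, with no overlap. It was chosen after the values were seen and was not tested.

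B2m, the light chain that all class I molecules need, lies on chromosome 2 at 122147686 to 122153083. It was at 1599.9, 1482 and 1463 RPM in DT, against 2338, 2167, 1872.5 and 2366 RPM in PBS. Every DT library was below every PBS library. The log2 change was -0.52 ± 0.15 (SE; 95% interval -0.86 to -0.18; limma, adjusted p = 0.0262), or 0.30 below the median of all genes (-0.30). The call was lost without PBS replicate 4 (adjusted p = 0.0827), DT replicate 1 (0.0665), DT replicate 2 (0.103) or DT replicate 3 (0.117). The transcript ratio of H2-D1 to B2m was 1.60 ± 0.143 in DT (SD, n = 3) and 0.795 ± 0.0937 in PBS (SD, n = 4). Its groups could not overlap, since every DT library was higher in H2-D1 and lower in B2m than every PBS library. H2-K1 to B2m was 0.472 ± 0.0615 in DT and 0.391 ± 0.0628 in PBS, with overlap. Both proportions are of RPM, without a correction for length. They were not among the planned ratios and were not tested.

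Reads were 50 bases long and cannot always be assigned among heavy chains. Of the 50-base stretches of the H2-D1 transcript, 14.3% also occur in a transcript of another gene, and 8.79% of those of H2-K1, where H2-D1 itself is the gene sharing most. B2m has 0 shared stretches of 811. These shares count exact matches only. The handling of reads from shared stretches is not stated, so the levels of the 2 heavy chains are uncertain by an amount these shares do not measure.

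**Figure D2:**
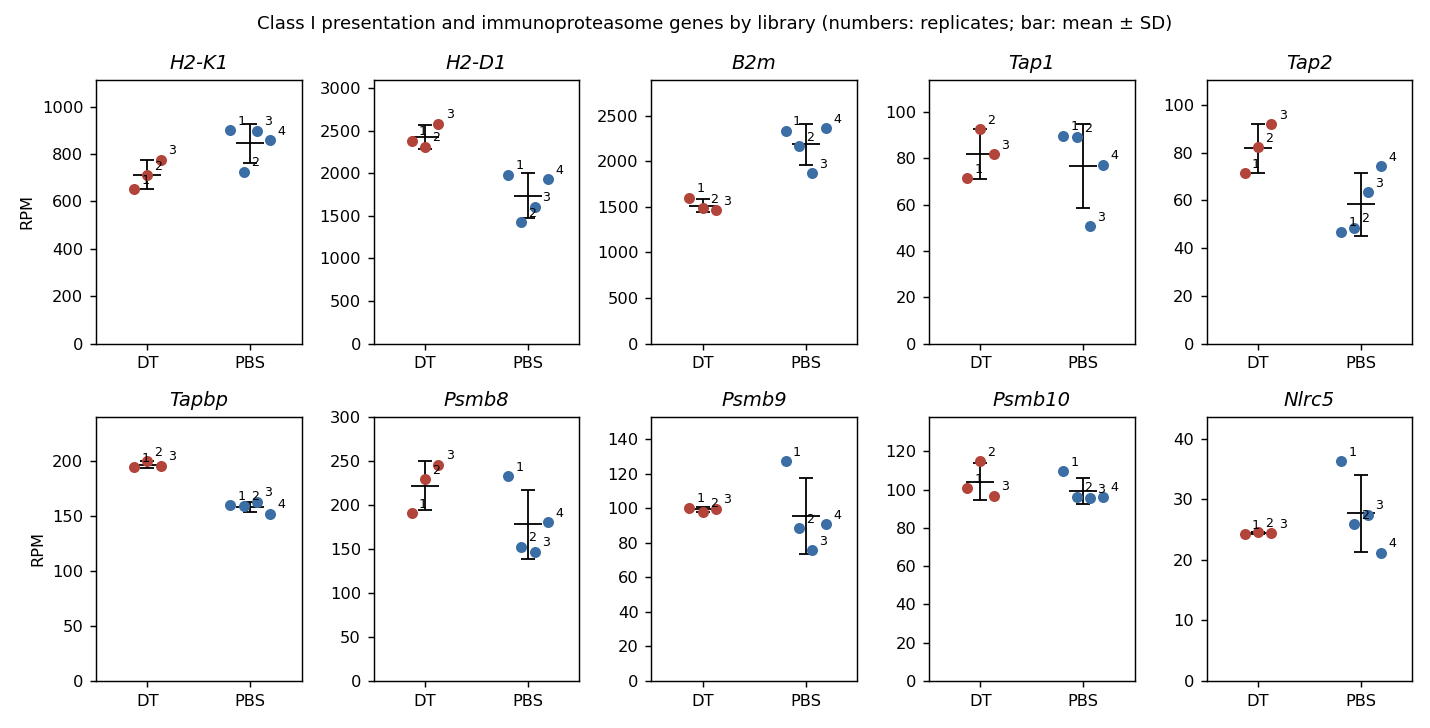
RPM of each of the 10 genes in the 3 DT and 4 PBS libraries; points are libraries with their replicate numbers, and bars show the mean and SD, with each axis starting at 0. H2-D1 and Tapbp lie higher and B2m lower in DT without overlap, and the groups overlap for the other 7 genes.

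The transporter and loading genes showed small differences that did not pass. Tap1 and Tap2 encode the chains of the peptide transporter, and Tapbp encodes tapasin, which holds the empty class I molecule at the transporter. All 3 lie on chromosome 17, Tap1 at 34187553 to 34197225, Tap2 at 34203527 to 34216321 and Tapbp at 33915899 to 33929292, on the plus strand. Tapbp had the least spread of the 3, at 194, 199.8 and 195 RPM in DT, against 159.6, 159.0, 163 and 152 RPM in PBS. The groups did not overlap, and the log2 change of 0.31 ± 0.11 (SE; 95% interval 0.05 to 0.57) missed the threshold (limma, adjusted p = 0.0641). It passed without PBS replicate 1 (0.0479). Of the transcript's 50-base stretches 21.0% are shared with other gene entries, mostly Gm19412.

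Tap2 was at 71.4, 82.3 and 91.95 RPM in DT, against 46.9, 48.7, 63.5 and 74.4 RPM in PBS. DT replicate 1 lay below PBS replicate 4. The log2 change was 0.50 ± 0.19 (SE; 95% interval 0.07 to 0.93) and missed the threshold (limma, adjusted p = 0.0729), but passed without PBS replicate 4 (0.0404). Tap1 was at 71.3, 92.6 and 81.7 RPM in DT, against 89.7, 88.95, 50.7 and 77.2 RPM in PBS. Its groups overlapped, with a log2 change of 0.12 ± 0.21 (SE; 95% interval -0.35 to 0.60; limma, adjusted p = 0.693), which was -0.06 without PBS replicate 3. The Tap2 to Tap1 ratio was 1.01 ± 0.118 in DT (SD, n = 3) and 0.822 ± 0.352 in PBS (SD, n = 4), and the groups overlapped. PBS replicates 1 and 2 held the lowest Tap2 and the highest Tap1 of their group.

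Of the 3 immunoproteasome subunits 0 passed in limma, and 0 had an unadjusted p under 0.05. Among the 3 constitutive counterparts 1 was lower in DT, where 18.6% of all tested genes were lower. Psmb8, Psmb9 and Psmb10 encode the subunits that take the places of Psmb5, Psmb6 and Psmb7 in the catalytic core. Psmb8 was at 191, 229 and 246 RPM in DT, against 233, 153, 147 and 180.3 RPM in PBS. PBS replicate 1 was above DT replicates 1 and 2, and the log2 change was 0.33 ± 0.18 (SE; 95% interval -0.07 to 0.74; limma, adjusted p = 0.186). Without PBS replicate 1 it was 0.47 and passed (0.0259).

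Psmb9, which lies beside Tap1 on the opposite strand of chromosome 17, was at 100.3, 97.8 and 99.7 RPM in DT, against 127, 88.4, 75.8 and 90.8 RPM in PBS. The DT libraries were nearly alike and lay inside the PBS range. Its log2 change was 0.08 ± 0.18 (SE; limma, adjusted p = 0.759), and 12.5% of its 50-base stretches overlap those of Tap1, so reads of these 2 genes could not be told apart without strand. Psmb10, on chromosome 8, was at 101, 115 and 96.8 RPM in DT, against 109.6, 96.2, 95.6 and 96.3 RPM in PBS. The groups overlapped, with a log2 change of 0.07 ± 0.13 (SE; 95% interval -0.23 to 0.36; limma, adjusted p = 0.735).

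Of the counterparts, Psmb7 was lower in DT, at 90.9 ± 3.65 RPM in DT (SD, n = 3) and 132 ± 21.3 RPM in PBS (SD, n = 4). Its log2 change was -0.52 ± 0.15 (SE; limma, adjusted p = 0.0283), and the call was lost without PBS replicate 4 (0.0754), DT replicate 1 (0.0705), DT replicate 2 (0.0854) or DT replicate 3 (0.104). Psmb5 was at 81.0 ± 7.59 RPM in DT and 104 ± 18.8 RPM in PBS, with a log2 change of -0.35 ± 0.16 (SE; limma, adjusted p = 0.129). Psmb6 was at 202 ± 6.20 RPM in DT and 243 ± 31.5 RPM in PBS, with a log2 change of -0.26 ± 0.14 (SE; limma, adjusted p = 0.17). Neither passed. The transcript of Psmb5 shares 57.1% of its 50-base stretches with other gene entries, mostly Gm3375, so its level is uncertain, and for Psmb7 the share is 28.1%, all with Nek6.

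Ratios within a library set each exchanged pair side by side free of library scaling. The log2 ratio of Psmb8 to Psmb5 was 1.29, 1.34 and 1.68 in DT, against 1.23, 0.22, 0.55 and 1.03 in PBS. All DT libraries were above all PBS libraries, by 0.68 in the mean (exact two-sided permutation p = 0.0571, n = 3 and 4). The log2 ratio of Psmb10 to Psmb7 was 0.09, 0.34 and 0.15 in DT, against -0.01, -0.69, -0.30 and -0.57 in PBS. The groups again did not overlap, and the difference was 0.59 (exact permutation p = 0.0571). The log2 ratio of Psmb9 to Psmb6 was -1.03, -0.99 and -1.04 in DT, against -0.76, -1.70, -1.59 and -1.39 in PBS. PBS replicate 1 was the highest of all 7 libraries, and the difference was 0.34 (exact permutation p = 0.229). Over the 3 ratios the adjusted p was 0.0856, 0.0856 and 0.229, and 0.0286 is the smallest unadjusted p the 35 splits can give.

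**Figure D3:**
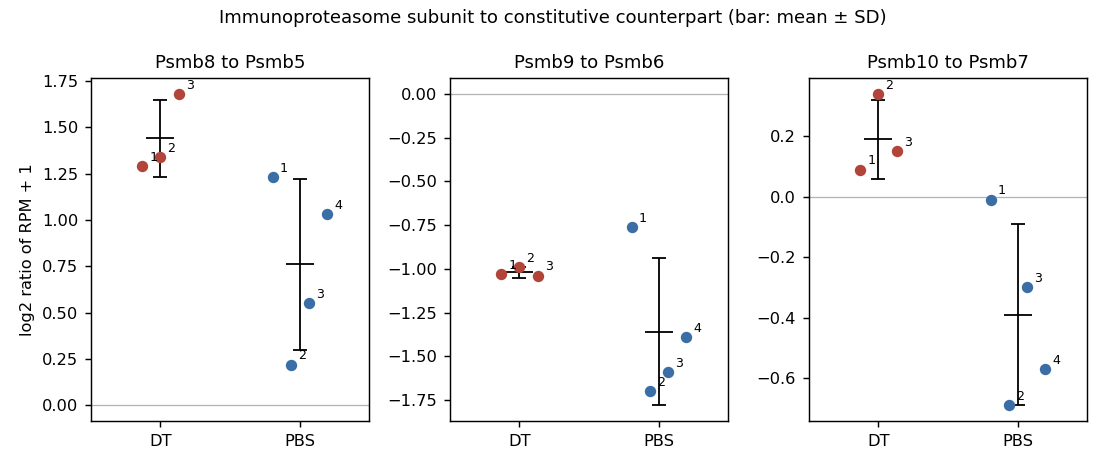
Log2 ratio of RPM + 1 between each immunoproteasome subunit and the constitutive subunit it replaces, in 3 DT and 4 PBS libraries (numbers are replicates; bars show mean and SD; axes differ between panels). In the panels of Psmb8 and Psmb10 the DT libraries lie above all PBS libraries, and in the panel of Psmb9 PBS replicate 1 lies above the DT libraries.

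Nlrc5, the transactivator of class I genes, lies on chromosome 8 at 94434356 to 94527272. It was at 24.3, 24.6 and 24.5 RPM in DT, against 36.3, 25.9, 27.4 and 21.2 RPM in PBS. The 3 DT libraries differed by less than the PBS libraries did, and lay inside the PBS range. The log2 change was -0.15 ± 0.21 (SE; 95% interval -0.61 to 0.31; limma, adjusted p = 0.606), and it turned positive, at 0.07, under median-ratio scaling.

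**Figure D4:**
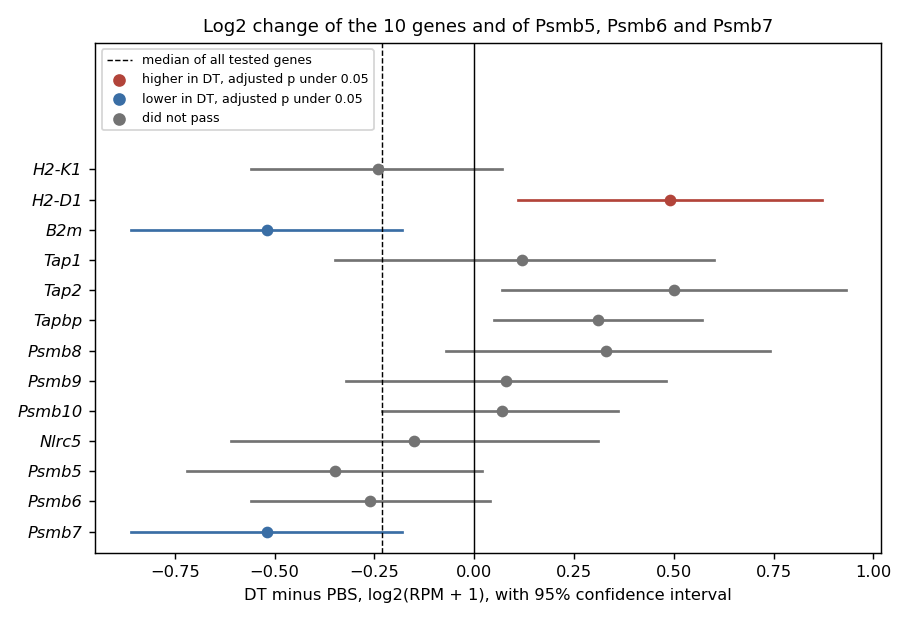
Log2 change (DT minus PBS, log2(RPM + 1)) with its 95% confidence interval for the 10 genes and the 3 constitutive counterparts; the solid line is 0 and the dashed line the median of all tested genes, -0.23. The intervals of H2-D1, Tap2 and Tapbp lie above 0 and those of B2m and Psmb7 below it, and of these H2-D1, B2m and Psmb7 passed after adjustment.

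The 10 genes differed among themselves in how they varied between libraries. PBS replicate 1 held the highest PBS value of 7 of the 10, all except B2m, Tap2 and Tapbp, and PBS replicate 3 the lowest value of 5. The coefficient of variation was larger in PBS than in DT for 9 of the 10, Psmb10 being the exception, at 9.12% in DT and 6.85% in PBS. Tapbp varied by 1.55% in DT and 2.92% in PBS, the least of the 10 in PBS, and Tap1 by 13% in DT and 23.8% in PBS, the most in either group. PBS replicate 1 also held the lowest erythroid sum, at 1020 RPM, where the other PBS libraries had 6870 to 11200 RPM, and the highest B-lineage sum, at 13000 RPM. Its sums of neutrophil (4520 RPM), monocyte and macrophage (914 RPM) and T and natural killer cell markers (73.9 RPM) were the highest in PBS too. So were those of classical dendritic cell (231 RPM) and endothelial markers (111 RPM), but not that of plasmacytoid dendritic cell markers. The part of these markers in the spread of the class I genes was not tested.

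Levels can be compared between genes only per length, here as RPM per kilobase of the principal GENCODE transcript. B2m led, at 1762 ± 86.1 RPM per kilobase in DT (SD, n = 3) and 2542 ± 264 in PBS (SD, n = 4). H2-D1 followed at 1154 ± 66.8 in DT and 826 ± 127 in PBS, then H2-K1 at 440.1 ± 38.2 in DT and 522 ± 50.9 in PBS. Psmb8 came next, at 136 ± 17.2 in DT and 109 ± 24.03 in PBS, and these 4 places did not overlap with each other in either group. Psmb10 and Psmb9 overlapped in both groups, at 79.5 ± 7.25 and 73.4 ± 0.966 RPM per kilobase in DT and 75.8 ± 5.19 and 70.7 ± 16.4 in PBS. Tapbp was at 67.8 ± 1.05 in DT, below every value of Psmb9, and at 54.6 ± 1.59 in PBS, where it overlapped with Psmb9. Tap1 and Tap2 overlapped in both groups, at 27.7 ± 3.61 and 23.8 ± 2.99 in DT and 25.95 ± 6.18 and 16.95 ± 3.79 in PBS. Nlrc5 was lowest, at 3.22 ± 0.021 in DT and 3.66 ± 0.836 in PBS. The order of the 10 genes was the same in both groups.

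Of 14 genes that help to fold, load or trim for class I molecules 5 were higher and 1 lower in DT. Among all tested genes 13.4% were higher and 18.6% lower. The median log2 change of the 14 was 0.50. With median-ratio scaling 9 of the 14 were higher, against 2382 of all 14088 genes tested. P4hb, a disulfide isomerase, was at 451 ± 47.2 RPM in DT (SD, n = 3) and 198 ± 23.3 RPM in PBS (SD, n = 4), a log2 change of 1.18 (limma, adjusted p = 0.000265). Calr, the chaperone calreticulin of the loading complex, was at 496 ± 59.8 RPM in DT and 219 ± 45.8 RPM in PBS. Pdia3, the isomerase bound to tapasin, was at 673 ± 32.1 RPM in DT and 404 ± 50.6 RPM in PBS (limma, adjusted p = 0.00365), and Sec61a1, a subunit of the protein-conducting channel, rose 1.63-fold. Hspa5, chosen after its value was seen, rose 1.58-fold, and Sec61g, also chosen so, was lower, at 2.38 ± 0.0563 RPM in DT and 5.56 ± 1.15 RPM in PBS (limma, adjusted p = 0.0248). The call of Sec61g was lost without DT replicate 1 (0.0741), DT replicate 2 (0.0705) or DT replicate 3 (0.0845). P4hb, Hspa5 and the Sec61 genes serve the secretory pathway at large and are not specific to class I. Erap1, which trims peptides, and Tapbpl, a tapasin relative, had log2 changes of 0.62 and 0.60 and did not pass (limma, adjusted p = 0.0781 and 0.0872). Canx, the chaperone calnexin that holds newly made heavy chains, lay the other way, with a log2 change of -0.56 that did not pass (limma, adjusted p = 0.125). These genes too were chosen with their values in view. Erap1 passed without PBS replicate 4 (0.0133) and Canx without PBS replicate 1 (0.00414).

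Of 5 genes for proteasome activators and assembly 1 passed, and it was lower, where 18.6% of all tested genes were lower. The median log2 change of the 5 was -0.36. The count lower was 3 without PBS replicate 1, where Psme3, an activator of the nuclear proteasome, and Pomp, which assembles the core, passed too (limma, adjusted p = 0.0127 and 0.0172). Psme4, which caps the proteasome in the nucleus, was at 40.6 ± 6.53 RPM in DT and 86.3 ± 17.8 RPM in PBS, a log2 change of -1.06 (limma, adjusted p = 0.003). Psme1 and Psme2, the interferon-inducible activator chains and chosen after their values were seen, had log2 changes of 0.11 and 0.23 and did not pass (limma, adjusted p = 0.554 and 0.346).

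Other class I and class I-like chains went both ways, with 4 higher and 2 lower of 14 tested from a list of 18. The shares over all tested genes were 13.4% higher and 18.6% lower. The median log2 change of these 14 entries was 0.00. They include H2-Ke6, listed by its name, which encodes a dehydrogenase and did not pass (log2 change -0.35). Fcgrt, the heavy chain of the Fc receptor that recycles antibody and albumin, was at 15.1, 14.1 and 44.8 RPM in DT, against 6.18, 2.10, 1.27 and 1.71 RPM in PBS (limma, adjusted p = 0.00311). DT replicate 3 stood far above the other DT libraries. Hfe, a regulator of iron uptake, was at 12.8 ± 5.33 RPM in DT and 2.39 ± 1.16 RPM in PBS, a log2 change of 2.02 (limma, adjusted p = 0.00627). H2-Q10, a secreted class I chain best known from liver, was at 70.8, 62.7 and 74.4 RPM in DT, against 20.7, 11.2, 27.4 and 18.6 RPM in PBS (limma, adjusted p = 0.000773). It shares 8.03% of its 50-base stretches with other genes. H2-Q7, a nonclassical chain that shares 40.2% of its stretches with other genes, was lower, at 116 ± 5.67 RPM in DT and 165 ± 23.8 RPM in PBS (limma, adjusted p = 0.0264). Its call was lost without PBS replicate 3 (0.0517), PBS replicate 4 (0.0635), DT replicate 1 (0.0677), DT replicate 2 (0.1) or DT replicate 3 (0.0835). H2-T23, the nonclassical chain read by natural killer cells, and Cd1d1, which presents lipids, were picked with their values known. They share 29.8% and 25.8% of their stretches with other genes. H2-T23 was higher, at 285 ± 32.7 RPM in DT and 201 ± 33.5 RPM in PBS (limma, adjusted p = 0.0387), and Cd1d1 lower, at 65.1 ± 9.37 RPM in DT and 124 ± 38.6 RPM in PBS (limma, adjusted p = 0.0322). The call of H2-T23 was lost without any 1 library other than PBS replicate 1 (0.0516 to 0.138). That of Cd1d1 was lost without PBS replicate 3 (0.0784), PBS replicate 4 (0.0779), DT replicate 1 (0.106), DT replicate 2 (0.054) or DT replicate 3 (0.104).

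Among factors that control class I genes, Atf1, a CREB-type factor, was lower, at 29.9 ± 8.12 RPM in DT and 50.4 ± 10.5 RPM in PBS (limma, adjusted p = 0.0371). The call was lost without PBS replicate 2 (0.0747), PBS replicate 4 (0.0645), DT replicate 1 (0.0634) or DT replicate 3 (0.154). Rfx5, Rfxap and Rfxank, the RFX subunits with which Nlrc5 acts, did not pass, with log2 changes of -0.50, -0.75 and -0.17. Irf1, which binds the interferon element of class I promoters, had a log2 change of 1.00 ± 0.36 (SE) without overlap and missed the threshold (limma, adjusted p = 0.0573). It passed without PBS replicate 1 (0.0348), PBS replicate 2 (0.017) or PBS replicate 4 (0.0499). It did not pass without PBS replicate 3 (0.0754), DT replicate 1 (0.105), DT replicate 2 (0.118) or DT replicate 3 (0.175). Without PBS replicate 2 the log2 change was 0.62, so its size leans on that library. The RFX genes and Irf1 were picked with their values known.

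On the list of interferons, their receptors, kinases and feedback inhibitors 5 of 9 tested genes passed, all higher. That compares with 13.4% higher and 18.6% lower among all tested genes. The median log2 change of the 9 was 0.71. Those passing were receptor chains and inhibitors, while Ifnar1 and the kinases Jak1, Jak2 and Tyk2 did not pass. Ifnar2, the other chain of the type I receptor, was named after its value was seen. It rose 1.63-fold (limma, adjusted p = 0.0182), a call lost without DT replicate 1 or DT replicate 3. The interferons on the list were not tested. Socs3, a feedback inhibitor of cytokine signaling, was at 13.6, 11.5 and 14.6 RPM in DT, against 2.56, 0, 0.448 and 0.0776 RPM in PBS (limma, adjusted p = 0.000599). Ifngr2 and Ifngr1, the chains of the interferon gamma receptor, rose 1.70-fold and 1.66-fold (limma, adjusted p = 0.00753 and 0.0113). Usp18, an interferon-induced inhibitor of the type I receptor, was at 42.3 ± 17.5 RPM in DT and 17.8 ± 4.76 RPM in PBS (limma, adjusted p = 0.0163). The call of Usp18 was lost without DT replicate 3 (0.0801) and that of Ifngr1 without DT replicate 1 (0.0555). The count of higher genes was 3 without DT replicate 1 or DT replicate 3. The monocyte and neutrophil markers given above rose in the same libraries, and their part in these changes was not tested.

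**Figure D5:**
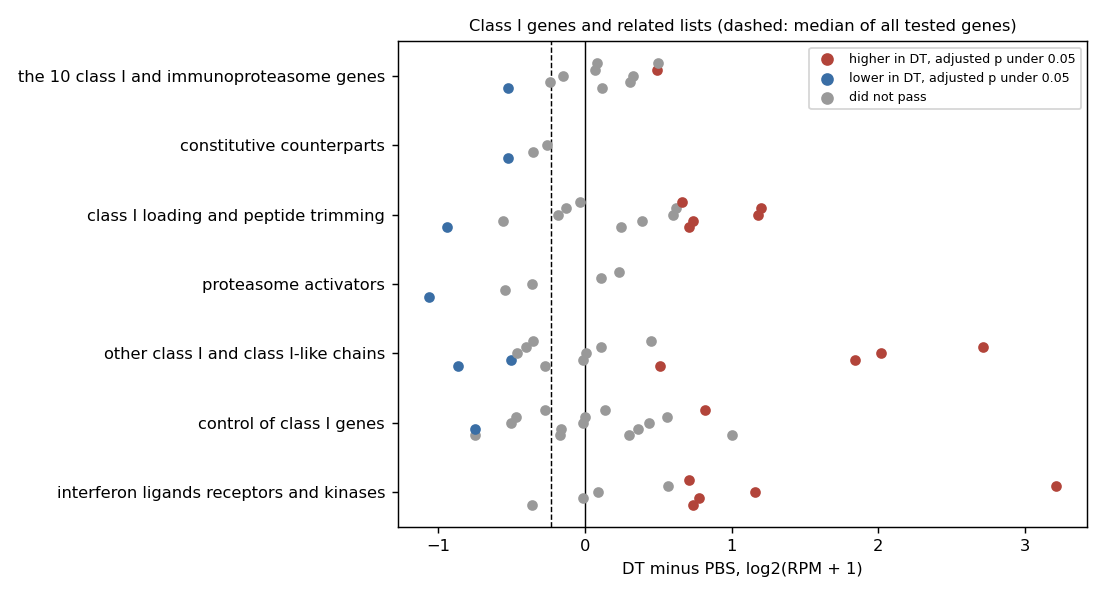
Log2 change (DT minus PBS, log2(RPM + 1)) of each tested gene, 1 point per gene, for the 10 genes and 6 related lists; colours give the call and the dashed line the median of all tested genes, -0.23. The 10 genes span -0.52 to 0.50, while single genes of other lists reach 2.71 (Fcgrt) and 3.21 (Socs3).

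The genes whose pattern over the 7 libraries was most like that of each class I gene were found by Pearson r of log2(RPM + 1) among 9222 candidates. These are the 10696 genes that averaged 5 RPM or more, less the lists described here, predicted genes, pseudogenes, small RNAs and antigen receptor segments. The libraries fall into the 2 treatment groups and share the scaling, so r is a measure of likeness only. Arrb2 (r = 0.998) and Bin2 (0.996) came closest to Tapbp, and Ptpro (0.993) and Litaf (0.989) to H2-D1. Trappc13 and Cbx6 (0.994 each) came closest to B2m, and Gimap4 (0.992) and Unc45a (0.972) to Tap2. The closest to H2-K1 were Filip1l (0.981) and Btg1 (0.979), to Nlrc5 Med31 (0.992) and Dctn5 (0.970), and to Psmb9 Nusap1 and Cdca7 (0.985 each). For Psmb8 they were Sdccag8 (0.973) and Appl1 (0.971), for Tap1 Pcgf5 (0.977) and Clu (0.938), and for Psmb10 Wdr70 (0.963) and Pif1 (0.943). The sizes of change differed between like patterns: Bin2 was at 134 ± 17.3 RPM in DT (SD, n = 3) and 27.1 ± 4.09 RPM in PBS (SD, n = 4), where Tapbp was at 196 ± 3.04 RPM in DT and 158 ± 4.62 RPM in PBS.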

How the data were processed

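RNA of 3 DT and 4 PBS mouse samples was analysed; groups and replicate numbers come from the sample titles. The table covers 50435 genes. Its name says FPKM, yet the values the authors deposited have the form of RPM, scaled to each library's reads and raised by an offset of 0.0001: the lowest value above the offset and its multiples recur across many genes of a library, which division by gene length would prevent. Per the submitters' processing notes the tools were STAR 2.5.3a and Partek, on mm10. No source used here gives the annotation, the counting settings or the use of strand. Of values up to 20 steps, 60.8% to 62.8% lay within 0.02 of a whole step, too few to treat the values as counts. The steps imply 33200000 to 51200000 reads a library, and precision from them covers counting error only, since amplified reads are not independent molecules.

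The offset was subtracted. The 14100 genes whose mean reached 1 RPM entered limma 3.58.1 (R 4.3.3) on log2(RPM + 1), a scale that understates changes of low genes, with the trend option, DT minus PBS, two-sided, Benjamini-Hochberg over all tested genes at 0.05. This test had been planned for FPKM and suits either unit. Subunit ratios were compared by exact permutation over 35 splits. The method was tested on simulated counts with larger changes than those of the 10 genes, so that test does not cover changes of their size. The 10 genes and all lists were chosen with earlier results of these data known. Named genes are the 10, Psmb5 to Psmb7, up to 4 called genes with the smallest p in each related list (else the 2 with the smallest p), the 2 genes most correlated with each of the 10, and the 2 most abundant genes of each marker list; others named were chosen after their values were seen. H2-Ke6, on the list of class I chains by its name, encodes a dehydrogenase. Alternatives covered the pseudocount, filter, 3 scalings, trend, weights, voom on estimated reads, a replicate block and leaving out libraries. Positions, transcripts and lengths are from GENCODE vM21 and promoters from RefSeq, both on GRCm38 (mm10). A result on the list of factors that control class I genes is not reported here.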

Additional observations from a re-analysis of the deposited data

Results flagged for a closer look

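In 31 sets of PBS values checked for a library far from the others, 3 were flagged, where chance flags about 5% of sets; groups of 3, as in DT, are not checked. Psmb10 in PBS replicate 1 stood at 109.6 RPM, apart from the other PBS libraries by 0.95 of the group's range. Fcgrt in the same library stood at 6.18 RPM, apart by 0.831 of the range. Hfe in PBS replicate 4 stood at 0.677 RPM, below the others by 0.838 of the range.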

How the results depend on the processing

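Across 19 alternatives to the limma fit, H2-D1 stayed higher (log2 change 0.26 to 0.73) and passed in 7, and B2m stayed lower (-0.76 to -0.29) and passed in 11. Median-ratio scaling moved the median change of all genes from -0.23 to -0.02, and rises then made up 64.3% of calls against 41.9%. It gave 1323 genes lower, 3 of the 10 higher and 0 lower; 1689 genes were lower with no filter, where 0 of the 10 were lower. The number of the 10 higher was 2 with quantile normalization, with sample weights or without both replicates numbered 1, and 0 with a pseudocount of 5, with TMM scaling (0 lower too) or without the trend. The genes behind these counts changed. Under quantile normalization they were Tap2 and Tapbp (limma, adjusted p = 0.0432 and 0.0413), and H2-D1 did not pass (0.315). With no filter Tapbp was higher (0.0329) and H2-D1 did not pass (0.182). Leaving out 1 library gave 0 to 3 of the 10 higher, 0 to 1 lower, 1208 to 3628 genes lower and 1383 to 2108 higher. Nlrc5 turned to 0.07 under median-ratio scaling, Tap1 to -0.06 and Psmb9 to -0.02 without PBS replicate 3, and Psmb10 to -0.01 without DT replicate 2; without 1 library their ranges were -0.06 to 0.22 (Tap1), -0.02 to 0.23 (Psmb9) and -0.01 to 0.12 (Psmb10). Tap2 passed in 4 of 19, Tapbp in 5, Psmb8 in 2 and the remaining 5 of the 10 genes in 0. The causes were not tested, except that fits without a library hold fewer samples. Subunit ratios kept their direction in all alternatives run, and with another pseudocount, none, or TMM scaling their exact permutation p was as reported. For TMM scaling this is no check, since the scale of a library cancels in a ratio apart from the pseudocount. Without 1 library no exact p under 0.0667 (2 DT against 4 PBS) or 0.1 (3 against 3) can be had, so those fits give values and no test.

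With the replicate number as a block, 1574 genes were lower, and of the 10 genes 1 was higher (Tap2, adjusted p = 0.0428) and 0 lower. H2-D1 had an adjusted p of 0.103 and B2m of 0.12 in that fit. Deviations of same-numbered samples correlated at 0.042, 0.049 and 0.01. PBS replicates 1 and 2 correlated best with their own number, and PBS replicate 3 did not. Correlations this near 0 over so few libraries cannot show whether samples of 1 number share a batch. The labels name no batch. The mean differences within pairs 1 to 3 were 0.77, 0.33 and 0.53 for the log2 ratios of Psmb8, Psmb9 and Psmb10 to their counterparts. The precision rests on 7 libraries, and depth does not limit the 10 genes.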

Other observations

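Some genes of the related lists averaged under 1 RPM and were not tested. Ifng, the main inducer of the immunoproteasome, was at 0.480, 0.285 and 1.46 RPM in DT, and was at 0.256 RPM in PBS replicate 4 and at 0 in the other PBS libraries. Ifnb1 was at 0 in every library. Socs1, an inhibitor of interferon gamma signaling, was at 0.142 ± 0.0896 RPM in DT (SD, n = 3) and 1.07 ± 0.52 RPM in PBS (SD, n = 4), without overlap.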
